A study of Mus musculus with 6 samples.

Results

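Testes of mice without H3f3b (KO) were compared with testes of mice that kept 1 functional H3f3b allele (HET), a comparison that asks what loss of the last allele adds. The arrays were chosen by the genotype in the labels: 2 KO and 2 HET arrays of the 6 in the series, which also held 2 wild-type (WT) arrays. Each genotype was represented once in each of 2 litters, so KO and HET mice could also be set side by side within a litter. The KO mice were H3f3b -/-, the HET mice H3f3b WT/- and the WT mice H3f3b WT/WT, all on strain C57BL6J. The null allele was made by deleting a floxed H3f3b allele with Zp3Cre, a Cre active in oocytes, and was then carried in the germ line, so that every cell of a KO mouse lacks the gene. RNA came from 1 testis of each mouse at 8 weeks of age and was measured on Illumina bead arrays. The age field of the labels gives an embryonic stage instead, but the 4 late spermatid markers on the array, among them Prm1 and Tnp1, were detected on all 6 arrays.

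H3f3b and its paralog H3f3a encode the same protein, histone H3.3, which is placed into chromatin outside DNA replication by the chaperones HIRA and ATRX with DAXX. The replication-dependent H3 genes, by contrast, are transcribed mainly while DNA is copied. In the testis, H3.3 is deposited on the silenced sex chromosomes of spermatocytes, and in spermatids most histones are replaced by transition proteins and then protamines. A whole testis holds these germ cells together with Sertoli cells, which nurse them inside the tubules, and Leydig cells, which make androgens between the tubules. In such bulk RNA, fewer cells of a type and less RNA per cell cannot be told apart.

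The arrays were of similar quality. Between 20349 and 21323 of 45281 probes were detected on the KO and HET arrays (detection p-value under 0.05), and normalized values of any pair of the 6 arrays correlated at 0.982 to 0.993. Along the component that took up most variance (47.9%), scores were 30.2 and 26.0 for KO, -3.87 and -11.6 for HET, and -19.5 and -21.2 for WT, so HET mice lay nearer to WT. A probe entered the comparison when it was detected on both KO arrays or on both HET arrays, which left 20237 probes on 14322 named genes. All levels below are log2 normalized signals and all differences are KO minus HET on the log2 scale, unless stated. P-values measure the spread between these 6 animals.

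H3f3b was near background in KO and well detected in HET. Its log2 level was 11.10 and 10.96 in the HET mice of litters 1 and 2 and 4.43 and 4.28 in the KO mice. Before normalization the signal was 2377.1 and 1833.5 in HET against 96.6 and 93.0 in KO, and neither KO value counted as detected (detection p-values 0.174 and 0.561). HET and KO were far apart in both litters, and H3f3b was at least 85.8-fold lower in KO with the main background correction (log2 difference -6.67, SE 0.14, limma adjusted p = 3.53e-08). The difference was -4.51 with the deposited mean-scaled values, so this bound holds for the main setting only. Where the probe lies relative to the deleted part of the gene is not known. The paralog H3f3a was at 12.13 and 12.05 in HET and at 12.16 and 12.22 in KO. Its difference of 0.10 did not pass the test (limma adjusted p = 0.708), and 1 of its other 2 probes had the same sign.

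Beyond H3f3b, few transcripts passed the correction for multiple tests. In all, 23 of 20237 probes (0.114%) on 22 genes were called at a limma adjusted p under 0.05. Of these, 4 probes (0.0198%) were higher in KO and 19 (0.0939%) were lower. All 23 probes had the same sign in both litters and no overlap between the KO and HET arrays, and 18 differed at least 2-fold. The calls rest on the same arrays, which favours both traits. Over all kept probes 68.0% had the same sign in both litters. Of all named genes, 29.3% had both KO arrays above both HET arrays and 24.7% both below. Looser cuts took in many more probes: 373 had an adjusted p under 0.1 and 1584 an adjusted p under 0.15. An unadjusted p under 0.05, a much looser cut, was found for 3971 (19.6%), where 1011.85 would be expected by chance. The count of called probes moved with the processing. With litter as a replicate block 72 probes (0.356%) were called, 943 with normexp at offset 50, 884 with an intensity trend in the variance, and 1668 with the deposited mean-scaled values. Of the calls, 17.4% were higher in KO in the main setting, against 64% with median scaling, 62.1% with the deposited mean-scaled values, 38.6% without background correction, 36.2% with offset 50 and 32.7% with the intensity trend. The count dropped to 7 and 8 without the HET mouse of litter 1 or 2, to 3 and 2 without the KO mouse of litter 1 or 2, and to 10 without either WT mouse, since the WT arrays add to the estimate of the spread. For comparison, in the same fit 1403 probes (6.93%) were called between KO and WT and 0 (0%) between HET and WT, with 1724 of the latter at an unadjusted p under 0.05.

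**Figure D1:**
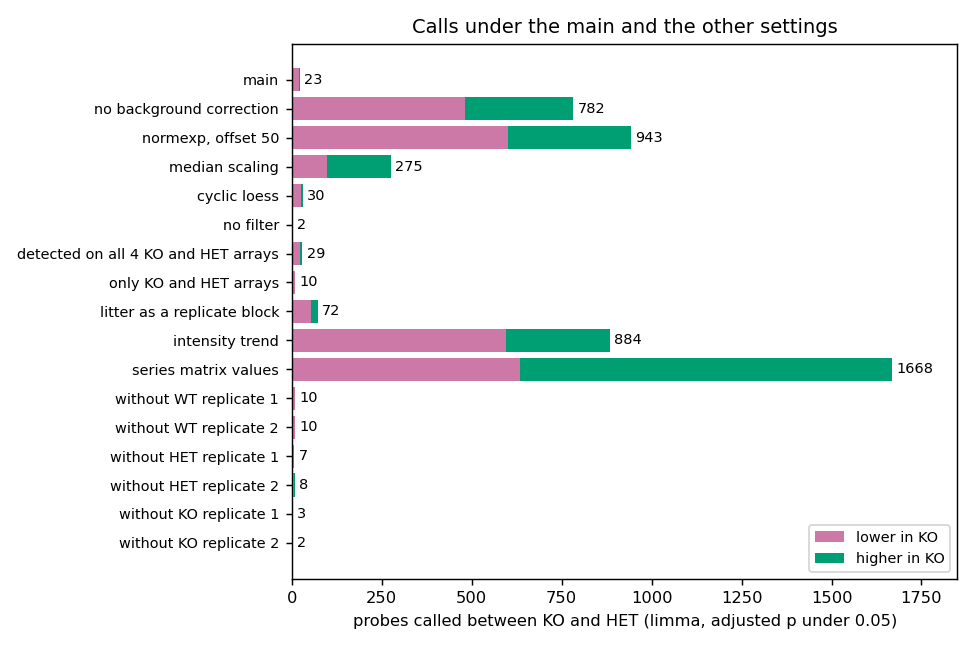
Horizontal bars give the number of probes called between KO and HET (x axis, limma adjusted p under 0.05) under the main setting and each alternative (y axis), split into probes lower and higher in KO. The main setting gives 23 calls, the largest count is 1668 with the series matrix values, and the fits without a KO array give 2 and 3.

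Among called probes, the largest fall after H3f3b was in Ston1 (deposited as 4921524J06Rik), a member of the stonin family related to endocytic adaptor proteins. Its brighter probe was at 7.46 and 7.44 in HET and at 5.60 and 5.62 in KO. Each genotype held a tight pair of values, and the gap between the pairs was far larger than the gap within them. The difference was -1.84 (SE 0.13, limma adjusted p = 0.00115), and the dimmer probe, at 6.73 and 6.98 in HET and 5.10 and 5.29 in KO, fell by 1.66 (limma adjusted p = 0.00695; 13 of 16 alternatives). Among the called probes, the brighter Ston1 probe kept its call in all 16 alternatives and H3f3b in all 15 in which it could be tested. No other probe did so. H3c13 and Hsd3b4 kept their call in 12 of 16 alternatives. Others described below, among them Hs3st3b1, Npb, Hspbap1, Klf4, BC057079, Lor and Vmn1r181, kept theirs in 8 of 16. The size moved more than the call: the Ston1 difference was -0.96 with the mean-scaled values.

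Among the called genes, those for the replication-dependent histone H3 came next. H3c14 (deposited as Hist2h3c1) was at 9.63 and 10.07 in HET and at 8.17 and 8.07 in KO, a difference of -1.72 (SE 0.16, limma adjusted p = 0.00973). H3c13 (deposited as Hist2h3b) was at 10.10 and 10.42 in HET and at 8.76 and 8.88 in KO, a difference of -1.44 (SE 0.15, limma adjusted p = 0.0146). For both genes the HET mouse of litter 1 was the lower of the HET pair and still lay above both KO mice. The other 2 probes deposited for H3c14 were dimmer and differed by -0.19 and -0.08 (limma adjusted p = 0.456 and 0.770). Replication-dependent H3 genes are nearly identical in their coding sequence, so a probe could take signal from several of them, and H3c13 and H3c14 are reported as uncertain for that reason.

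The 100 bases before the annotated start of H3f3b, of these 2 histone genes, of H3c10 (a further histone H3 gene described below) and of Ston1 are given here from RefSeq, since these are the genes with the largest called falls or of the same histone family. Each is written 5′ to 3′ on the strand of the gene in build GRCm38.p6, with the letters CCAAT and TATAA (searched on both strands, with no overlap between them) in capitals.
H3f3b, chr11:116024505-116024604, minus strand: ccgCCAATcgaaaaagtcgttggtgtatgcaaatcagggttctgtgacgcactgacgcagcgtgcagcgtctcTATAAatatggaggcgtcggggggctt
H3c13, chr3:96268554-96268653, plus strand: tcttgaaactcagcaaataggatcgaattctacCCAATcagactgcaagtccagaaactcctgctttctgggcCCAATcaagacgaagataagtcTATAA
H3c14, chr3:96246585-96246684, plus strand: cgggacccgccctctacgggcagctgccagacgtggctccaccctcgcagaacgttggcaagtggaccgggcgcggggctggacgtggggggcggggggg
H3c10, chr13:21717528-21717627, plus strand: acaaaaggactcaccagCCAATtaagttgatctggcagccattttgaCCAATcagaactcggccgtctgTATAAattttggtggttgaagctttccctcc
Ston1, chr17:88626455-88626554, plus strand: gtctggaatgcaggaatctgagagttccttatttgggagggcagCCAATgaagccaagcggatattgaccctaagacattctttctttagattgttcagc
CCAAT stands 2 times before H3c13 and H3c10, 1 time before H3f3b and Ston1 and 0 times before H3c14, and it occurs in 18.9% of 32851 such windows. TATAA stands before H3f3b, H3c13 and H3c10 and occurs in 10.2% of the windows. These are matches of letters only.

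The other falls that passed the test ran from -1.34 to -0.93. Hs3st3b1, a heparan sulfate sulfotransferase, was at 7.19 and 7.57 in HET and 5.87 and 6.26 in KO (-1.31, limma adjusted p = 0.0411). Its dimmer probe overlapped between the genotypes, at 6.07 and 5.46 in HET and 5.49 and 5.60 in KO (-0.22, limma adjusted p = 0.560). Art1, an ADP-ribosyltransferase, was at 6.17 on both HET arrays and at 5.03 and 4.75 in KO (-1.28, limma adjusted p = 0.0321). At the called probes of Hs3st3b1 and Art1 the KO values lay below both HET values. Npb, which encodes the secreted neuropeptide B, was at 7.62 and 7.91 in HET and 6.53 and 6.73 in KO (-1.13, limma adjusted p = 0.0411). Hspbap1, whose product binds a small heat shock protein, was at 8.19 and 8.15 in HET and 6.98 and 7.24 in KO (-1.06, limma adjusted p = 0.0411). Rundc3a (deposited as Rap2ip), which encodes a RUN domain protein, fell by 1.07 (limma adjusted p = 0.0405). Fam50b (deposited as D0H6S2654E) fell by 1.17. The uncharacterised transcripts LOC381396, 4930455F16Rik and 1700096P03Rik differed by -1.34, -1.26 and -1.12 (limma adjusted p = 0.0276, 0.0389 and 0.0288). Further called genes, named after their values were seen, were Cyb5r2, a cytochrome b5 reductase (-1.01), Mars2, the mitochondrial methionyl-tRNA synthetase (-0.99), Atxn7l1 (-0.97), Palld, an actin-associated protein (-0.96), and Klf4, a zinc finger transcription factor (-0.93). The called probes of Mars2 and Klf4 were not the brightest of their genes. The brightest ones differed by -0.49 for Mars2 (limma adjusted p = 0.138) and by -0.87 for Klf4 (limma adjusted p = 0.0759), in the same direction. The dimmer probe of Palld differed by -0.40 (limma adjusted p = 0.159).

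**Figure D2:**
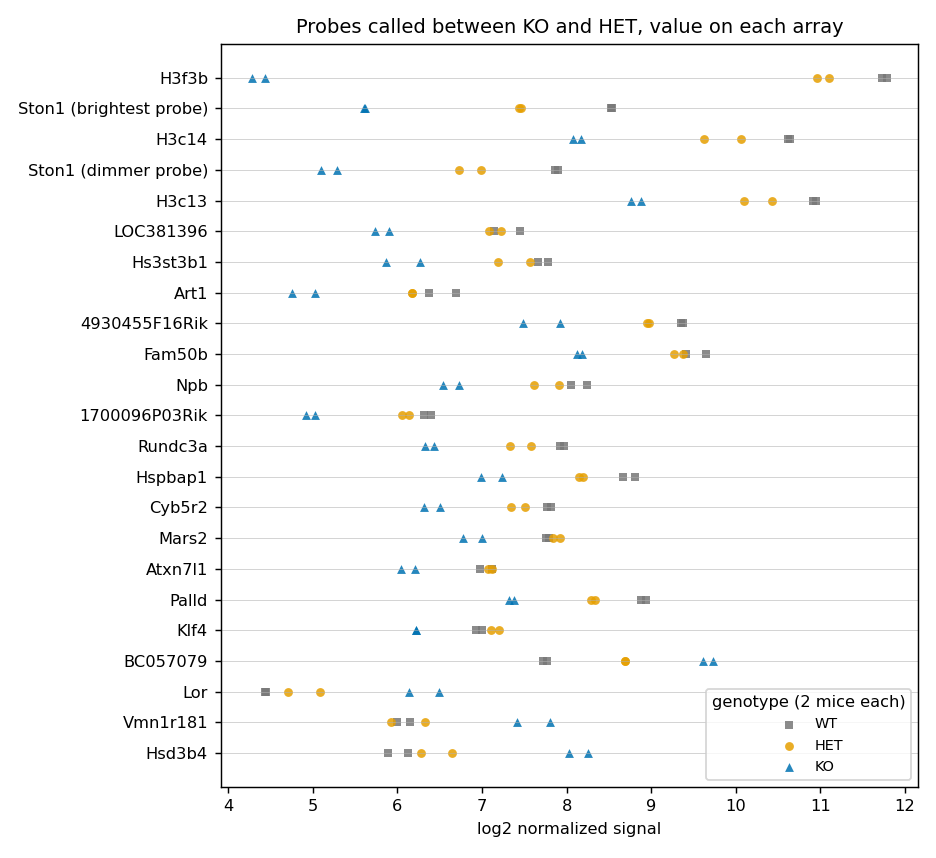
Each row is 1 of the 23 probes called between KO and HET, and each symbol is the log2 normalized signal (x axis) on 1 array of WT (squares), HET (circles) or KO (triangles), with 2 mice per genotype. KO and HET symbols are apart in every row, which calling on the same arrays favours. The HET symbols lie midway for BC057079 but beside the WT symbols for Vmn1r181, Mars2 and Atxn7l1.

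The genes that rose were 4 in number. Hsd3b4, a member of the 3-beta-hydroxysteroid dehydrogenase family, was at 6.28 and 6.64 in HET and at 8.03 and 8.26 in KO (1.68, SE 0.17, limma adjusted p = 0.0135). Vmn1r181 (deposited as V1rd20), a vomeronasal receptor gene, was at 5.92 and 6.33 in HET and 7.81 and 7.42 in KO (1.49, limma adjusted p = 0.0321). The loricrin gene Lor, best known from the epidermis, was at 4.70 and 5.08 in HET and 6.49 and 6.14 in KO (1.42, limma adjusted p = 0.0321). Lor was detected on both HET arrays, though close to background. BC057079, which has no known function in the tables used here, was at 8.69 on both HET arrays and at 9.73 and 9.61 in KO (0.98, SE 0.13, limma adjusted p = 0.0405). Each of these 4 genes was represented by 1 kept probe.

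The next genes upward did not pass the test. Akr1c19, an aldo-keto reductase, was at 8.13 and 8.19 in HET and 9.01 and 9.16 in KO (limma adjusted p = 0.0534). Six2, a homeobox transcription factor, was at 4.92 and 4.84 in HET and 5.77 and 5.73 in KO (limma adjusted p = 0.0550), and Paox, a polyamine oxidase, was at 8.56 and 8.43 in HET and 9.39 on both KO arrays (limma adjusted p = 0.0574). All 3 had KO values above both HET values, and each passed when litter entered the fit. The others nearest to the threshold included Etv6, an ETS family repressor (0.89, limma adjusted p = 0.0661). Etv6 was detected on neither HET array, so its difference is taken against background, with a lower bound of 1.69-fold. Next were Alk, a receptor tyrosine kinase (0.94), and the lysosomal protease gene Ctsb (0.81). The short-chain dehydrogenase gene Dhrs7 differed by 0.80 and the guanine nucleotide exchange factor gene Arhgef6 by 0.79. These 4 each had a limma adjusted p of 0.0669.

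The size of the step from HET to KO can be set beside the step from WT to HET, which shares the HET arrays and is therefore given for description only. BC057079 differed by 0.94 between HET and WT and by 0.98 between KO and HET, so that its HET level stood 49.1% of the way from WT to KO. Ston1 differed by -1.08 at the first step and -1.84 at the second, H3c14 by -0.78 and -1.72, H3c13 by -0.67 and -1.44, and Palld by -0.59 and -0.96. For Ston1, H3c14, H3c13 and Palld the HET mice lay between the other genotypes, nearer to WT. In others the HET mice were close to WT: Vmn1r181 differed by 0.05 at the first step and 1.49 at the second, Atxn7l1 by 0.05 and -0.97, Klf4 by 0.18 and -0.93, and LOC381396 by -0.15 and -1.34. Across the 19 genes called at their brightest probe other than H3f3b, the HET position ran from -5.40% to 49.1% of the way from WT to KO, with a median of 24.1%. These genes were chosen on their KO minus HET difference, so the figure is a description only. The direct test, of HET against the midpoint of KO and WT, called 1 of 20237 probes (0.00494%), H3f3b (-2.97, limma adjusted p = 1.54e-05), while 1703 probes had an unadjusted p under 0.05. The HET minus WT difference of H3f3b was -0.73. Its KO level was not above background and HET kept 1 allele, so its midpoint had to lie below HET and nothing is read from that call. For Ston1, Vmn1r181, Klf4, Mars2, Atxn7l1 and Hsd3b4 the test gave a limma adjusted p of 0.567, which shows neither equal nor unequal steps.

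The litters are separate pairs of mice, so the difference was also read within each. Over all kept probes the KO minus HET differences of litter 1 and litter 2 correlated at 0.508 (across 20237 probes, which share the platform and are not independent), and 68.0% of probes had the same sign in both. The SD of the differences was 0.31 in litter 1 and 0.35 in litter 2, against 0.25 between the 2 HET mice and 0.26 between the 2 KO mice. Ston1 differed by -1.86 and -1.81 in litters 1 and 2, and Hs3st3b1, at its called probe, by -1.32 and -1.31. Lor and Vmn1r181 differed more in litter 1 (1.79 and 1.88) than in litter 2 (1.06 and 1.09), and H3c14 less (-1.46 against -1.99).

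**Figure D3:**
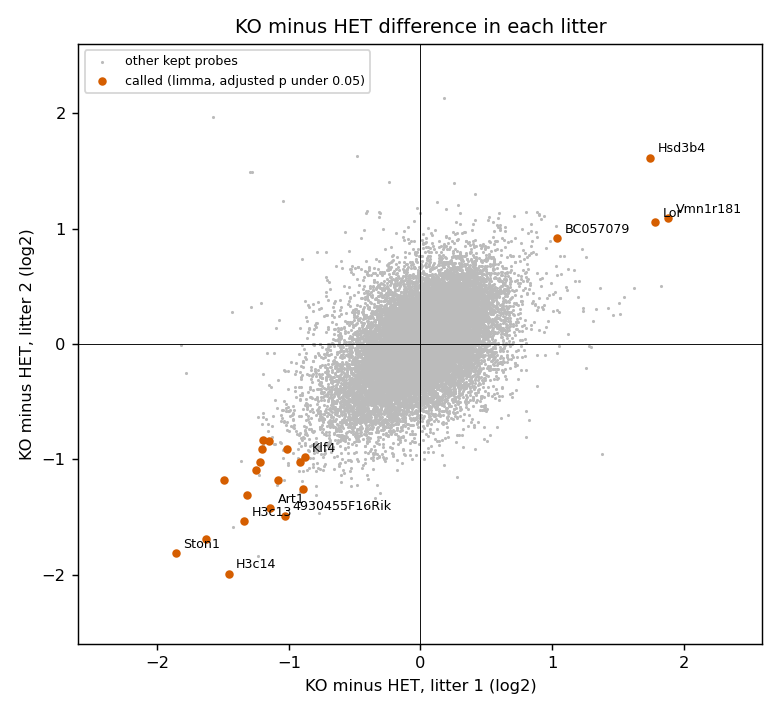
Each point is 1 kept probe, with its KO minus HET difference (log2) in litter 1 on the x axis and in litter 2 on the y axis. Called probes are in orange, and the axes end at 2.6, which leaves out 3 probes (H3f3b, Svs4 and Svs5). The called probes lie in the corners where both litters have the same sign, which calling on the same arrays favours. Of all kept probes, 68.0% have the same sign in both litters.

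With litter as a replicate block, all 23 probes stayed called and 49 more were added, 14 higher and 35 lower in KO. The labels state that the replicate number is the litter, so this fit compares KO with HET within litters. These added genes were named after their values were seen. The largest added fall was in Galnt17, which belongs to a family of glycosyltransferases, at 6.20 and 6.72 in HET and 4.77 and 5.13 in KO (-1.51, limma adjusted p = 0.0141 with the block). Both its HET and KO values were higher in litter 2. Among the added falls were the homeobox gene Prox1 (-1.01), the kinase gene Dyrk1b (-1.05), the phosphatase gene Dusp4 (-0.93), the glutamate receptor subunit gene Grin3b (-0.93) and the iron regulatory gene Ireb2 (-0.98). Others were the GTPase gene Arl13b (-0.86), the tubulin glycylase gene Ttll3 (-0.96) and Erich3 (-0.88). Added rises included the water channel gene Aqp5 (1.01), the lymphocyte kinase gene Lck (0.94) and the alcohol dehydrogenase gene Adh1 (0.83). Cyth1, an exchange factor for ARF proteins (1.03), was added as well. Aqp5 was detected on neither HET array, so its difference is taken against background, with a lower bound of 1.78-fold. Apart from Galnt17, the adjusted p-values of the added probes with the block lay between 0.0444 and 0.0498.

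A different count asks which probes were detected in KO but not in HET, or the reverse, whatever the WT arrays showed. Of the genes named below, Etv6, Prune2, H3f3b, Trh, Cnot7, LOC380737 and 1700041I07Rik were detected on both WT arrays. On both KO arrays and neither HET array 418 probes were detected, and on both HET arrays and neither KO array 225. Nearly all lay just above background, with a median lower bound of 1.09-fold for the first set and 1.13-fold for the second. At a bound of at least 1.5-fold there were 3 probes in the first set, for Aqp5 (at least 1.78-fold higher in KO), Etv6 (1.69) and Prune2 (1.61). In the second set 6 probes reached that bound, among them H3f3b, the hormone precursor gene Trh (at least 1.65-fold lower in KO), the deadenylase subunit gene Cnot7 (1.59) and Mllt1, a subunit of an elongation complex. The other 2 were LOC380737 (1.68) and 1700041I07Rik (1.56). Of all these, H3f3b alone was called, and Aqp5 and Etv6 were called with the replicate block.

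Gene lists for the cell types and processes of the testis were read by how many members had both KO arrays above, or both below, both HET arrays. Over the 14322 named genes, each read at its brightest probe, 29.3% had both KO arrays above and 24.7% both below, and the median difference was 0.03. A positive difference was found for 53.9% of genes and a negative one for 46.1%. At the adjusted threshold 0.0279% were called higher and 0.112% lower, and at an unadjusted p under 0.05 these shares were 9.84% and 10.6%. The lists are described by these counts, and none was tested as a set.

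Sertoli cell genes lay higher in KO, although no member passed the test alone. Of 36 measured genes of 45 listed, 24 (66.7%) had both KO arrays above both HET arrays, 0 had both below, and the median difference was 0.34. Trf, the iron carrier transferrin, was at 6.94 and 6.92 in HET and 7.70 and 7.80 in KO (limma adjusted p = 0.0692). Cldn11, the tight junction protein of the blood-testis barrier, was at 12.44 and 12.36 in HET and 12.83 and 12.87 in KO (0.45), and Clu, the secreted protein clusterin, was at 13.23 and 13.17 in HET and 13.61 and 13.63 in KO (0.42). For these 3 genes the mice of a genotype were close together and the genotypes were apart. Inha, the inhibin alpha subunit (0.52), Dhh, a hedgehog ligand (0.47), Wt1 (0.43) and Sox9 (0.33), both transcription factors, the dopamine receptor gene Drd4 (0.65) and the defensin gene Defb36 (0.54) were also higher on both KO arrays, with limma adjusted p-values from 0.0813 for Drd4 to 0.247 for Sox9. The median difference between HET and WT was 0.13 for the same list. The summed normalized signal of the 10 measured Sertoli markers of 11 was 18239 and 17548 in HET and 23622 and 24307 in KO.

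Leydig cell and steroidogenesis genes showed the largest median of the lists with at least 9 measured genes, 0.50 over 21 genes of 31. Both KO arrays were above both HET arrays for 16 of them (76.2%) and below for 1, and 0 were called. Cyp17a1, the enzyme that turns progestins into androgens, was at 11.90 and 12.51 in HET and 13.07 and 13.05 in KO (0.86, limma adjusted p = 0.0902). Ces3, a carboxylesterase, was at 8.91 and 9.32 in HET and 10.01 and 10.08 in KO (0.93, limma adjusted p = 0.0808), and Fads1, a fatty acid desaturase, at 10.69 and 11.04 in HET and 11.61 and 11.55 in KO (0.71, limma adjusted p = 0.0838). In all 3 the HET mouse of litter 1 was the lowest of the 4 mice. Cyp11a1, which makes the first steroid from cholesterol, differed by 0.59, the luteinizing hormone receptor gene Lhcgr by 0.61, Hsd17b3, which makes testosterone, by 0.64, the cholesterol transporter gene Star by 0.42 and the peptide hormone gene Insl3 by 0.48. The exception was Hsd11b1, which interconverts glucocorticoids, at 5.32 and 5.09 in HET and 4.69 and 4.66 in KO (-0.53, limma adjusted p = 0.114). Between HET and WT the median of this list was -0.08. The summed signal of 6 of 7 Leydig markers was 8497 and 11609 in HET, 15444 and 16357 in KO and 10127 and 11005 in WT. The 2 HET mice differed from each other, and both lay below the KO mice.

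Of 20 cholesterol synthesis genes, 11 had both KO arrays above both HET arrays and 2 below (median 0.27), among them the sterol oxidase gene Msmo1 at 7.25 and 7.94 in HET and 8.26 and 8.23 in KO (limma adjusted p = 0.155). Of 10 peritubular and smooth muscle genes 7 were above and 2 below (median 0.22), led by Acta2, smooth muscle actin, at 11.52 and 11.48 in HET and 11.92 on both KO arrays (limma adjusted p = 0.138). Of 19 macrophage genes 5 (26.3%) were above and 3 below (median 0.12), and 7 had a negative difference. The lysozyme gene Lyz1 (0.77) and the Fc receptor gene Fcgr3 (0.69) had limma adjusted p-values of 0.0808 and 0.0866, and the other probe of Lyz1 had the opposite sign. The difference furthest from 0 was a negative one, in the antigen presentation gene Cd74, at 8.28 and 6.87 in HET and 6.50 and 6.62 in KO (-1.02, limma adjusted p = 0.181). Of 15 endothelial genes 5 were above and 2 below (median 0.07). Of 3 measured red blood cell genes, both globin genes had lower values in KO. Hba-a1 was at 9.53 and 9.36 in HET and 8.33 and 8.77 in KO (limma adjusted p = 0.0787), and Hbb-b1 at 9.92 and 9.82 in HET and 8.85 and 9.16 in KO (limma adjusted p = 0.0808). Both also stood higher in HET than in WT, by 0.45 for Hba-a1 and 0.39 for Hbb-b1. The other gene, Alas2 of heme synthesis, was at 7.07 and 7.39 in HET and 6.77 and 8.00 in KO, so its groups overlapped (0.15, limma adjusted p = 0.830).

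**Figure D4:**
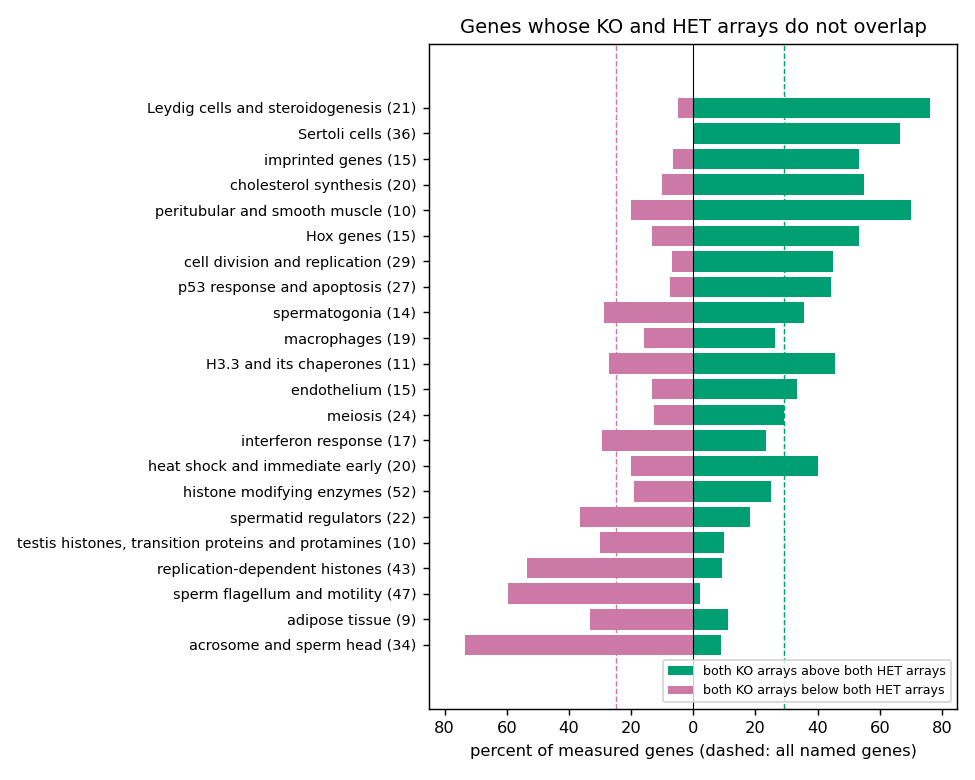
For each gene list with at least 9 measured genes (number in brackets), bars give the percent of genes with both KO arrays above both HET arrays (right) or below them (left). Dashed lines mark the same shares over all named genes, 29.3% above and 24.7% below. Leydig cell genes extend furthest to the right, with 76.2%, and acrosome genes furthest to the left, with 73.5%.

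Acrosome and sperm head genes, which are active in spermatids, lay lower in KO. Of 34 measured genes of 43, 25 (73.5%) had both KO arrays below both HET arrays, 3 had both above, 0 were called and the median difference was -0.34. Spam1, a sperm hyaluronidase, was at 10.28 and 10.74 in HET and 9.22 and 9.88 in KO (-0.96, limma adjusted p = 0.101). Spata46, a sperm head protein, was at 10.05 and 9.94 in HET and 9.28 and 9.29 in KO (-0.71, limma adjusted p = 0.0810), and Adam1a, a fertilin subunit, at 10.50 and 10.86 in HET and 9.90 and 10.07 in KO (-0.70, limma adjusted p = 0.0910). For Spam1 the KO mouse of litter 1 was lowest, and the litter 2 mouse was the higher one in both genotypes. Izumo1, which joins sperm and egg (-0.49), the acrosomal genes Spaca3 (-0.50) and Acrv1 (-0.48), the head-to-tail junction gene Sun5 (-0.59) and the lysozyme-like gene Lyzl4 (-0.67) were lower on both KO arrays as well. Actrt1, an actin-related protein of the sperm head, was the largest exception, at 9.22 and 9.19 in HET and 9.43 and 9.79 in KO. Between HET and WT the median of the list was -0.06.

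Flagellum and motility genes showed smaller differences in the same direction. Of 47 measured genes of 62, 28 (59.6%) had both KO arrays below both HET arrays and 1 had both above, 43 had a negative difference against 46.1% of all named genes, and 0 were called. The median was -0.16, against -0.02 between HET and WT. Catsper1, a pore subunit of the sperm calcium channel, was at 9.25 and 9.49 in HET and 8.52 and 8.43 in KO (-0.90, limma adjusted p = 0.0672), and Catsper3, a further pore subunit, was at 10.62 and 10.93 in HET and 9.88 and 10.28 in KO (-0.69, limma adjusted p = 0.114). Hk1, a hexokinase whose testis form sits along the flagellum, differed by -0.77, the testis kinase gene Tssk4 by -0.70, the tektin gene Tekt5 by -0.50 and the fibrous sheath gene Ropn1 by -0.59. Smcp, of the sperm mitochondrial capsule, was at 14.13 and 14.36 in HET and 13.91 and 14.07 in KO (limma adjusted p = 0.368), a small gap next to the spread within each genotype.

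Histone genes were split by class. Of 43 replication-dependent core and linker histone genes, 23 (53.5%) had both KO arrays below both HET arrays, 4 had both above, and 2 were called, H3c14 and H3c13 (median -0.14). The median was -0.35 over 9 H3 genes, -0.36 over 11 H2B genes, -0.17 over 8 H4 genes, -0.05 over 13 H2A genes and 0.10 over 2 H1 genes. Both KO arrays were below both HET arrays for 8 of the 9 H3 genes and 7 of the 11 H2B genes. H3c10 (deposited as Hist1h3h) was at 9.98 and 10.10 in HET and 9.33 and 9.34 in KO (-0.70, limma adjusted p = 0.0759). The H2B gene H2bc22 (deposited as Hist1h2bp) was at 10.90 and 10.96 in HET and 10.27 and 10.39 in KO (-0.60, limma adjusted p = 0.0867). Whether these members share probe signal is not known. The late packaging genes differed little: of 10 testis histones, transition proteins and protamines, 3 had both KO arrays below, 1 above and 0 were called. Prm3 was at 11.64 and 11.73 in HET and 11.38 and 11.44 in KO (limma adjusted p = 0.305).

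**Figure D5:**
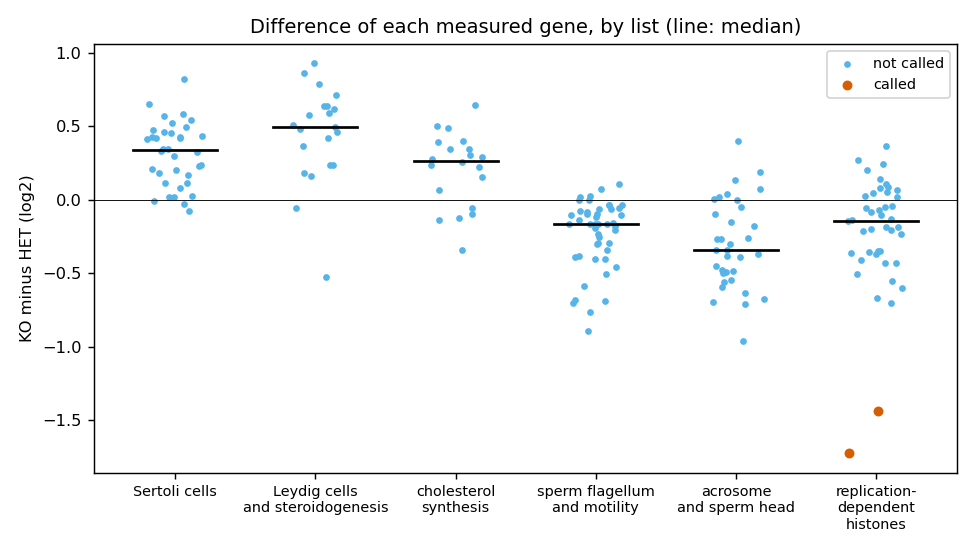
Each point is the KO minus HET difference (log2, y axis) of 1 measured gene in 6 gene lists (x axis), with called genes in orange and a line at the median of the list. Medians are 0.34, 0.50 and 0.27 for the Sertoli, Leydig and cholesterol lists and -0.16, -0.34 and -0.14 for the flagellum, acrosome and histone lists. The only called genes are H3c14 and H3c13.

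Of 11 measured genes for H3.3 and its chaperones, 5 (45.5%) had both KO arrays above both HET arrays and 3 (27.3%) below (median 0.11), and H3f3b alone was called. Asf1a, a chaperone that hands H3 to other chaperones, was at 5.34 and 5.15 in HET and 5.73 and 5.78 in KO (0.51, limma adjusted p = 0.114), and Daxx at 10.17 and 10.22 in HET and 9.66 and 10.08 in KO (-0.33, limma adjusted p = 0.298). Of 52 histone modifying enzymes 13 were above and 10 (19.2%) below, near the background on both sides. Kdm6b, a demethylase of H3 lysine residues, was the one with the smallest p, at 7.94 and 7.89 in HET and 7.29 and 7.28 in KO (-0.63, limma adjusted p = 0.0808), and 1 of its other 2 probes had the opposite sign.

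Among genes of earlier germ cell stages, the share with both KO arrays above both HET arrays was near the background. Of 24 meiosis genes 7 (29.2%) were above and 3 (12.5%) below, with a median of 0.07. The meiotic cohesin gene Rec8, at 9.28 and 9.52 in HET and 8.61 and 9.02 in KO (-0.58, limma adjusted p = 0.145), had the smallest p. Of 14 spermatogonial genes 5 (35.7%) were above and 4 (28.6%) below (median 0.13). The ubiquitin hydrolase gene Uchl1 differed by 0.40 and the transcription factor gene Lhx1 by -0.58 (limma adjusted p = 0.147 and 0.145). The receptor gene Ret was not detected on either KO array and was at least 1.10-fold lower there than in HET (limma adjusted p = 0.129). Neither WT array detected Ret, and its KO minus WT difference was -0.05. Of 22 spermatid transcription and translation regulators, a later stage, 4 (18.2%) were above and 8 (36.4%) below (median -0.04). Over all named genes these shares were 29.3% and 24.7%. Dazl, an RNA-binding protein of germ cells, differed by 0.48 and the transcription factor gene Sox5 by -0.50 (limma adjusted p = 0.128 and 0.184). The summed signal of 3 of 5 spermatocyte markers overlapped between the genotypes (HET 5688 and 4666, KO 5767 and 5297). That of 4 of 5 spermatid markers did so too (HET 72780 and 73065, KO 72901 and 67719). A sum mostly follows its brightest members, here Prm1 and Tnp1, with mean log2 HET levels of 15.45 and 14.31. Of the 4 spermatid markers, 1 had both KO arrays below both HET arrays and 0 had both above. Whether spermatid signal as a whole was unchanged was not tested. Sertoli and Leydig marker sums were higher in both KO mice than in both HET mice. The WT Leydig sums, 10127 and 11005, lay between those of the HET mice. Peritubular sums were also higher (KO 4061 and 4060, HET 3166 and 3030). So were macrophage sums (KO 444 and 449, HET 378 and 358). Only 1 of the 4 macrophage markers had both KO arrays above both HET arrays, however. This held for 8 of 10 Sertoli markers and 6 of 6 Leydig markers. Endothelial and spermatogonial sums overlapped between KO and HET, while adipose and red blood cell sums were lower in both KO mice. The epididymis value, which was Defb30 alone, was also lower in both. The part of these cell types in the gene differences was not tested.

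Genes of growth control and patterning had both KO arrays above both HET arrays more often than the background, as the Sertoli and Leydig lists did. A shared cause was not tested. Of 15 imprinted genes 8 (53.3%) had both KO arrays above both HET arrays and 1 below (median 0.30), led by the cell cycle inhibitor gene Cdkn1c at 7.18 and 7.42 in HET and 7.94 and 8.14 in KO (limma adjusted p = 0.0808). Of 15 Hox genes 8 were above and 2 below (median 0.19). Hoxa5 was at 5.25 and 4.89 in HET and 5.85 and 5.90 in KO (0.81, limma adjusted p = 0.0783), and Hoxd10 at 4.61 and 4.92 in HET and 5.52 and 6.04 in KO (1.01, limma adjusted p = 0.0888). These Hox genes were dim, and the KO mice lay above both HET mice. Hoxd10 was detected on 1 HET array only. It entered the comparison through its KO arrays, so its difference is read against a level near background. Of 29 cell division genes 13 (44.8%) were above and 2 below (median 0.19), with the cyclin gene Ccnd2 at 5.59 and 5.47 in HET and 6.40 and 6.08 in KO (limma adjusted p = 0.0810). Of 27 genes of the p53 response and apoptosis 12 (44.4%) were above and 2 below (median 0.16), with Cdkn1a, a p53 target that arrests the cell cycle, at 6.41 and 6.21 in HET and 6.95 and 7.02 in KO (limma adjusted p = 0.0962). Hspbap1 was the called member among 20 heat shock and immediate early genes, of which 8 were above and 4 below (median 0.07). Of 17 interferon response genes 4 were above and 5 below (median 0.07). At their brightest probes no other member of these lists passed the test.

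Tissue that can come along with a dissected testis was also read. All 5 epididymis markers were on the array, but Lcn5, Lcn8, Adam7 and Crisp1 did not pass the detection filter. The 1 that passed was the defensin gene Defb30. It was at 7.40 and 7.60 in HET and 7.25 and 6.75 in KO (limma adjusted p = 0.213). Of 3 kept genes on the longer epididymis list, 2 were below and 0 above, and Cst11 overlapped (0.003, limma adjusted p = 0.992). Of 9 measured adipose genes 1 was above and 3 below (median -0.26). The adipose hormone gene Adipoq was at 8.74 and 8.93 in HET and 8.29 and 8.20 in KO (limma adjusted p = 0.0992). The summed signal of 3 of 4 adipose markers was 739 and 623 in HET and 501 and 354 in KO, and that of 3 red blood cell markers 1838 and 1731 in HET and 894 and 1262 in KO. Both sums were lower in both KO mice, and their part in the other differences was not tested.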

How the data were processed

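Total RNA of 1 testis from each of 6 mice was measured on Illumina bead arrays. The deposited table holds the average bead intensity of each of 45281 probes and a detection p-value per probe and array, summarised in GenomeStudio per the submitters' processing notes. Its version and background handling are not stated. A second deposited table holds the same intensity values with each array scaled to an equal mean, as the values show. Background was corrected by normexp with controls inferred from the detection p-values, an offset of 16 was added and arrays were quantile normalized (neqc, limma 3.58.1, R 4.3.3). Probes detected at p under 0.05 on both KO or both HET arrays were kept (20237). Genotype was fitted over all 6 arrays with lmFit and eBayes (residual df 3, prior df 6.21), and two-sided p-values, after Benjamini-Hochberg adjustment across these probes, were called under 0.05. The fit was tested on simulated data.

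A lower bound sets the bright group against, on each dim array, the higher of the probe's own signal and the lowest signal among detected probes. Deposited symbols were matched to current RefSeq names: of 31494 symbols, 13424 were current, 8145 were updated, 113 matched several genes and 9812 were unmatched and kept as deposited. The brightest kept probe stands for a gene. Named genes are H3f3b, H3f3a, up to 12 called rises and falls by size (filled up with the smallest p-values) and up to 3 genes per list with the smallest p; further genes were named after their values were seen. The members and lists were chosen with earlier results of these data known.

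The labels number the litters, and each litter gave 1 mouse of each genotype, so the replicate numbers pair the mice. Deviations of same-litter mice from their group means correlated at 0.171 for HET and KO, 0.135 for WT and KO and 0.0917 for WT and HET across probes. Alternatives covered background correction, normalization, filter, arrays in the fit, the litter block, an intensity trend, the mean-scaled values and each array left out. Precision is limited by 2 arrays per genotype.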

Additional observations from a re-analysis of the deposited data

Results flagged for a closer look

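For H3f3b the midpoint of KO and WT lay at -2.97 relative to HET on the log2 scale (limma adjusted p = 1.54e-05). The deletion itself fixes this sign, since KO was not above background and HET kept 1 allele, and the size is measured against that background level. Over all kept probes 68.0% had the same sign in both litters. Slpi, for example, differed by -1.58 in litter 1 and 1.96 in litter 2. Among the genes named by the rules given above, the litters went opposite ways for 2, which was not tested. The cystatin gene Cst11 differed by -0.17 in litter 1 and 0.17 in litter 2. Alas2, the first enzyme of heme synthesis in red blood cells, differed by -0.30 in litter 1 and 0.61 in litter 2.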

How the results depend on the processing

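The count of 23 probes called between KO and HET became 782 without background correction, 943 with normexp at offset 50, 275 with median scaling, 884 with an intensity trend, 1668 with the deposited mean-scaled values, 2 with no filter on detection and 10 with only the KO and HET arrays. With litter as a replicate block it was 72, and all 23 were among them. It stayed within 1.5 times with cyclic loess (30) and with probes detected on all 4 arrays (29). Leaving out 1 array at a time gave 2 to 10 calls. Median scaling also moved the median difference of all probes from 0.02 to 0.12. The count of probes off the midpoint of KO and WT, 1 in the main setting, was 2 with median scaling, 3 with the intensity trend, 5 with the mean-scaled values and 0 with probes detected on all 4 arrays, a filter that removes H3f3b. It was 1 to 3 with 1 array left out, the 3 without the HET mouse of litter 1. Among the named genes, 2 near 0 changed sign. Cst11 was -0.025 with cyclic loess and -0.17 to 0.18 with 1 array left out. Alas2 was -0.46 to 0.77 with 1 array left out, and -0.01 without the HET mouse of litter 1. The cause was not tested, and no list median changed sign with median scaling, cyclic loess or the mean over probes. With 2 arrays per genotype, sizes are uncertain also where the call held: over the alternatives H3f3b ran from -6.78 to -4.51, Ston1 from -1.90 to -0.96, Hsd3b4 from 1.12 to 1.86, Lor from 0.55 to 1.61 and Art1 from -1.42 to -0.48.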

Other observations

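Several secreted and immune genes stood apart in 1 mouse. The seminal vesicle secretory gene Svs4 was at 9.99 in the HET mouse of litter 2 and at 5.53 to 5.93 in the other 5 mice. Svs5, of the same family, was at 9.64 in that mouse, 7.97 in the HET mouse of litter 1 and 7.45 and 7.03 in the KO mice. The antigen presentation gene Cd74 was at 8.28 in the HET mouse of litter 1 and 6.87 in that of litter 2, with the KO mice at 6.50 and 6.62, and the class II gene H2-Eb1 was at 6.96 and 5.56 in HET. The protease inhibitor gene Spink8 was at 7.71 in the KO mouse of litter 2 and at 5.41 to 5.62 in the other 5 mice. None of these genes was called between KO and HET.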
